A study of Mus musculus with 47 samples.

Results

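The genes of MHC class II antigen presentation were followed in mouse lung after allergic sensitization and challenge with ragweed pollen protein. The members were 9 genes: the chain genes H2-Aa, H2-Ab1 and H2-Eb1, the invariant chain Cd74, the peptide-loading genes H2-DMa, H2-DMb1, H2-Oa and H2-Ob, and the transactivator Ciita. All probe sets that the array annotation assigned to them were taken, which gave 16 of the 49438 probe sets of the series. Of these, 14 were on the 3 tables used for the tests and 12 were tested. A probe set was tested when it lay above an intensity floor on at least 2 arrays. The 7 probe sets that lay above the floor on all 8 arrays passed whichever group was high. The other 5 could pass through the group where they read high, so counts over the 12 are descriptions.

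Total RNA from murine lung was hybridised to Affymetrix murine U74 arrays, a set of 3 arrays (A, B and C) that exists in a first version and a version 2. In the ragweed groups, mice had been sensitized (days 0 and 3) to ragweed pollen protein given with alum, an adjuvant, and then received the protein into the trachea on days 10 and 17. The PBS groups had PBS at each of these steps, and alum is named for the ragweed groups alone, so an effect of ragweed and an effect of alum cannot be told apart. Lungs were taken 24 h or 72 h after challenge, with 2 samples, coded 1a and 1b, in each of the 4 groups. Strain, age and sex were not given in the sources used here. Whether 1a and 1b were separate animals was not given either, so the p-values reflect a spread between samples that could be technical.

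MHC class II molecules are heterodimers of an alpha and a beta chain that show peptides from the endosomal pathway to CD4 T cells. They assemble with the invariant chain, Cd74, which is cut down to a fragment called CLIP. H2-DM then exchanges CLIP for peptide, and H2-DO restrains H2-DM, mainly in B cells. Transcription of these genes is switched on by Ciita, a coactivator that binds no DNA itself and acts through factors at the X and Y boxes of their promoters. In lung, dendritic cells, B cells and macrophages are the main cells known for class II, and alveolar type II cells carry it too.

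The promoter stretches of 5 members are shown for the boxes through which Ciita acts. They were taken from RefSeq (GRCm38.p6), whose table of windows from 250 bases before to 50 bases after a transcript start held 6 of the 9 members. Each stretch runs from 110 to 31 bases before the start, 5′ to 3′ on the strand of the gene. Only stretches that hold a Y box core are shown, so the printed set was picked for that match. Capitals mark the Y box core ATTGG (or CCAAT on the other strand), the X box core AACNNATG and the palindrome TGACGTCA of the X2 type.
H2-Aa: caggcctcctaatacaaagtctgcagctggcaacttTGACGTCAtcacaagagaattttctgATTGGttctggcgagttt
H2-DMb1: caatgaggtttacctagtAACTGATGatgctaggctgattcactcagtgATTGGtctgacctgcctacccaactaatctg
H2-Eb1: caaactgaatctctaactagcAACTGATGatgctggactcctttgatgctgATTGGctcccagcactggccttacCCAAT
H2-Oa: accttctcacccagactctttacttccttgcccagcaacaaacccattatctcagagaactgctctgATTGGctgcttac
H2-Ob: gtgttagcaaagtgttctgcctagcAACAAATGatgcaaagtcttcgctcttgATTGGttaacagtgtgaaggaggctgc
The stretches lie in GRCm38.p6 at chr17:34287854-34287933 on the minus strand for H2-Aa, and on the plus strand at chr17:34153081-34153160 for H2-DMb1, chr17:34305757-34305836 for H2-Eb1, chr17:34092269-34092348 for H2-Oa and chr17:34238795-34238874 for H2-Ob. The letters were chosen with these windows in view, from the textbook form of the boxes. Both strands were searched for each motif by itself. The Y box core was in 6 of 7 member windows and in 37.4% of all 32851 windows. The X box core was in 3 of 7 member windows and in 8.86% of all windows, and the palindrome in 1 of 7 and in 1.79%. An X box core followed by ATTGG, with starts 15 to 40 bases apart, was sought on the strand of the gene alone. It was in the windows of H2-DMb1, H2-Eb1 and H2-Ob and in 35 of all windows, or 0.107%. These are matches of letters and not measured sites. The remaining windows were those of H2-DMa, which has 2.

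H2-Aa, the alpha chain of I-A, rose at 72 h. Its probe set 92866_at read 8968 and 9371 with PBS against 13020 and 12195 with ragweed in the 24 h samples (normalised intensity, 1a then 1b). The 72 h samples read 12195 and 11175 with PBS against 20259 and 18442 with ragweed. Both ragweed samples lay above both PBS samples at each time, and the ragweed 72 h samples stood above all others. The ragweed difference was 0.46 ± 0.09 at 24 h on the log2 scale (± SE, 2 samples a group; limma adjusted p = 0.157) and did not pass the threshold of 0.05. At 72 h it was 0.73 ± 0.09, or 1.66-fold (adjusted p = 0.0179). The 72 h call was lost when either ragweed 72 h or either PBS 72 h sample was left out. In those fits the difference ran from 0.66 to 0.80 and the adjusted p went up to 0.155.

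H2-Ab1, the beta chain that pairs with H2-Aa, was also highest in ragweed at 72 h. Its replicates spread more widely than those of 92866_at in each group except ragweed at 72 h. Probe set 100998_at read 1912 and 2288 with PBS against 2211 and 2914 with ragweed in the 24 h samples, and 3499 and 3087 against 5323 and 5061 in the 72 h samples. The groups overlapped at 24 h and did not overlap at 72 h. The differences were 0.28 ± 0.16 at 24 h (adjusted p = 0.710) and 0.66 ± 0.16 at 72 h (adjusted p = 0.173), and neither passed.

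H2-Eb1, the beta chain of I-E, had the widest spread between replicates of the 3 chain genes at 24 h. Probe set 94285_at read 3727 and 2446 in PBS and 4726 and 3104 in ragweed at 24 h, which overlap. The 72 h samples read 3658 and 4442 in PBS and 7065 and 7165 in ragweed, which do not. The difference was 0.34 ± 0.24 at 24 h (adjusted p = 0.759) and 0.82 ± 0.24 at 72 h (adjusted p = 0.284). A further H2-Eb1 probe set on the B array, 116266_at, was above the floor of 356 on 1 of 8 arrays and was not tested.

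Cd74, the invariant chain that fills the class II groove until peptide is loaded, was among the brightest probe sets in every sample. Probe set 101054_at read 24103 and 20903 in PBS and 26269 and 27668 in ragweed at 24 h. Its 72 h values were 26784 and 25961 in PBS and 32315 and 31250 in ragweed. The groups did not overlap at either time, and the differences were small: 0.26 ± 0.10 at 24 h (adjusted p = 0.500) and 0.27 ± 0.10 at 72 h (adjusted p = 0.429). Cd74 ranked between 16 and 52 of 9977 probe sets on these arrays, where quantile normalization sets a value by its rank. With scaling alone, the 72 h difference was 0.53 and the 24 h difference 0.20.

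**Figure D1:**
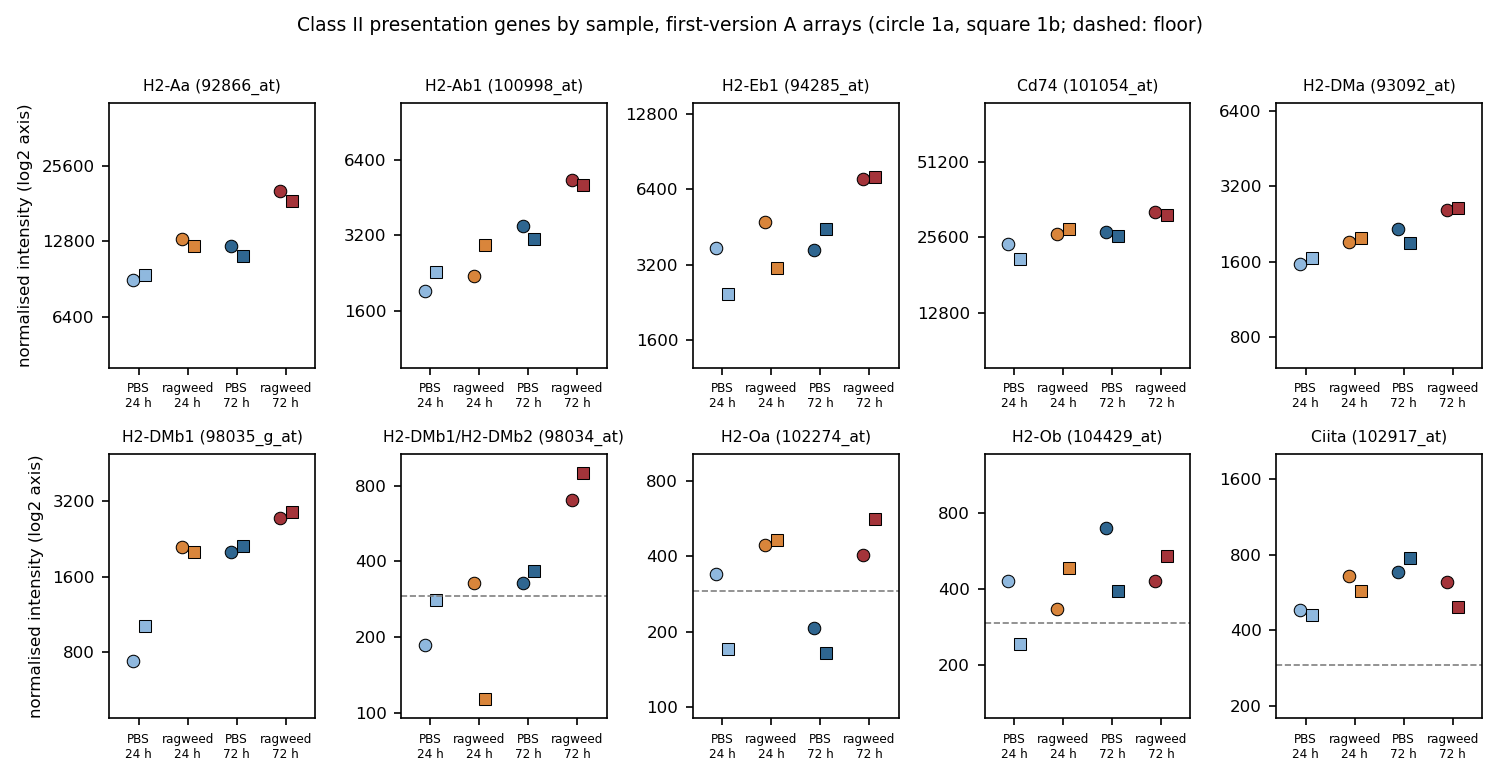
Normalised intensity (log2 axis) of 10 member probe sets in each of the 8 samples on the first-version A arrays; circles are samples 1a, squares samples 1b, and the dashed line is the floor of 292 where it falls in the panel. Each panel spans the same number of doublings; ragweed at 72 h is the highest group for H2-Aa, H2-Ab1, H2-Eb1, Cd74, H2-DMa, H2-DMb1 and the probe set 98034_at, and not for H2-Ob or Ciita.

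H2-DMb1, the beta chain of the peptide editor H2-DM, was the member called at 24 h. Probe set 98035_g_at read 741 and 1023 with PBS against 2107 and 2008 with ragweed in the 24 h samples. The 72 h samples read 2015 and 2121 with PBS against 2734 and 2910 with ragweed. The PBS 24 h samples were the low ones, and the PBS 72 h samples overlapped the ragweed 24 h samples. The ragweed difference was 1.24 ± 0.17 at 24 h, or 2.36-fold (adjusted p = 0.0336), and 0.45 ± 0.17 at 72 h (adjusted p = 0.429). The 24 h call held when PBS 24 h sample 1b was left out and was lost when any of the other 7 samples was, with differences from 1.01 to 1.47 and adjusted p from 0.0208 to 0.151. H2-DMb1 and H2-DMb2 are near-identical neighbours, so signal from the 2 genes cannot be told apart with certainty on these probe sets.

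The probe set 98034_at matched H2-DMb1 and H2-DMb2 and is given by its ID. It read 186 and 281 in PBS and 329 and 113 in ragweed at 24 h, against a floor of 292. The 72 h samples read 328 and 365 in PBS and 704 and 900 in ragweed. The groups overlapped at 24 h and stood apart at 72 h. With the 3 samples under the floor set to it, its difference was 0.09 ± 0.20 at 24 h (adjusted p = 0.954) and 1.20 ± 0.20 at 72 h (adjusted p = 0.0577), just outside the threshold.

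H2-DMa, the alpha chain of H2-DM, had smaller differences that did not pass. Probe set 93092_at read 1575 and 1650 in PBS and 1915 and 1998 in ragweed at 24 h. The later samples read 2155 and 1900 in PBS and 2571 and 2630 in ragweed. The groups did not overlap at either time, with differences of 0.28 ± 0.12 at 24 h (adjusted p = 0.574) and 0.36 ± 0.12 at 72 h (adjusted p = 0.365).

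H2-Oa and H2-Ob, the chains of the H2-DM inhibitor H2-DO, were dim. H2-Oa (102274_at) read 340 and 171 in PBS and 445 and 463 in ragweed at 24 h. The later samples read 207 and 164 in PBS, both under the floor, and 404 and 563 in ragweed. The difference was 0.53 ± 0.21 at 24 h (adjusted p = 0.522) and at least 0.71 ± 0.21 at 72 h (adjusted p = 0.287), and values set to the floor add no spread. H2-Ob (104429_at) read 430 and 242 with PBS against 334 and 486 with ragweed in the 24 h samples, and 697 and 392 against 432 and 542 in the 72 h samples. Its groups overlapped at both times, with differences of 0.19 ± 0.35 (adjusted p = 0.933) and -0.11 ± 0.35 (adjusted p = 0.972).

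Ciita, the transactivator, had the sign of the chain genes on the A array at 24 h and the opposite sign at 72 h, and neither difference passed. Probe set 102917_at read 482 and 461 in PBS and 659 and 572 in ragweed at 24 h, with both ragweed samples higher. The 72 h samples read 680 and 779 in PBS and 621 and 495 in ragweed, with both ragweed samples lower. The differences were 0.38 ± 0.26 (adjusted p = 0.754) and -0.39 ± 0.26 (adjusted p = 0.703). A Ciita probe set on the C array, 129299_at, was above the floor of 245 on 1 of 8 version 2 arrays and was not tested. On the first-version C arrays it was above a floor of 254 on 2 arrays, with differences of 0.18 ± 0.20 at 24 h and -0.14 ± 0.20 at 72 h.

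The other H2-Aa probe sets sat on the C arrays, and none was called. The probe set 167072_r_at read 957 and 587 with PBS against 820 and 1230 with ragweed in the 24 h samples, and 154 and 314 against 958 and 704 in the 72 h samples. The PBS 72 h samples were its low group, and its 72 h difference of 1.57 ± 0.53 did not pass (adjusted p = 0.363). The probe set 169296_at was above the floor on 3 of 8 arrays, with differences of 0.65 ± 0.38 and 0.10 ± 0.38. On the first-version C arrays, 139837_f_at read from 1335 to 2131 in the 24 h samples and from 1925 to 4460 in the 72 h samples, and its groups overlapped at both times. Ragweed at 72 h was its highest group by mean, as for 92866_at, with differences of -0.01 ± 0.39 at 24 h and 0.44 ± 0.39 at 72 h, neither past the test (adjusted p of 1 and 0.879).

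Across the tested member probe sets, the 24 h and 72 h comparisons were read against the share of calls among all probe sets. At 24 h 1 of 12 was called higher (H2-DMb1), where 0.210% of 25250 probe sets were called higher. For 72 h, 1 of 12 was called higher (H2-Aa), where 0.333% were. No member was called lower at either time. An unadjusted p under 0.05 was reached by 4 of 12 at 24 h and by 9 of 12 at 72 h, where 2190 and 2431 of 25250 probe sets reached it. Both ragweed samples lay above both PBS samples for 6 of 12 at 24 h, where 16.3% of all probe sets did, and for 9 of 12 at 72 h, where 18.0% did. The median log2 difference of the 12 was 0.36 at 24 h and 0.55 at 72 h, and that of all probe sets was 0 at both times. Among the 7 above the floor on all arrays, the medians were 0.34 and 0.45, with 7 positive at 24 h and 6 at 72 h, Ciita being the exception.

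No member passed the test for a different response to ragweed at the 2 times. The change of the ragweed difference from 24 h to 72 h was called for 0 of 12 members, where 0.0356% of all probe sets were called, and 2 members had an unadjusted p under 0.05. These were 98034_at, with 1.11 ± 0.29 (adjusted p = 0.467), and H2-DMb1, with -0.79 ± 0.24 (adjusted p = 0.524). The 2 probe sets of H2-DMb1 thus pointed opposite ways. For H2-Aa the change was 0.27 ± 0.13 (adjusted p = 0.731) and for Cd74 it was 0.00 ± 0.14 (adjusted p = 0.997).

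The PBS groups themselves differed in H2-DMb1. It was 2.37-fold higher in PBS at 72 h than in PBS at 24 h (log2 difference 1.25 ± 0.17, adjusted p = 0.0300), which made 1 of 12 members called, where 0.281% of all probe sets were called in either direction. H2-Ab1 was 0.65 ± 0.16 higher in PBS at 72 h (adjusted p = 0.247), Ciita 0.63 ± 0.26 (adjusted p = 0.566) and H2-Aa 0.35 ± 0.09 (adjusted p = 0.304). Of the 12 members 10 were positive in this comparison and 7 had an unadjusted p under 0.05. The median was 0.34; this comparison and that of ragweed against PBS at 24 h share the PBS 24 h samples. The H2-DMb1 call rested on the first-version arrays: on version 2 A the PBS difference was 0.37 ± 0.16 (adjusted p = 0.399), and 0 of 11 members were called, where 0.796% of 8044 probe sets were. It was also lost when any sample other than PBS 24 h 1b was left out.

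On the arrays used for the tests, other markers also differed between the PBS groups. The summed intensity of 4 club cell markers was 53260 and 57171 in PBS at 24 h and between 97672 and 120401 in the other 6 samples. That of 4 tested squamous epithelium markers was 30618 and 31896 in PBS at 72 h and between 9514 and 12704 elsewhere. That of 6 heart muscle markers was 16244 and 17519 in PBS at 72 h and between 7941 and 10625 elsewhere. Of these markers, Scgb1a1, Cyp2f2, Scgb3a2, Krt4 and Krt13 passed the test between the PBS groups (adjusted p at most 0.0164). For ragweed against PBS at 72 h, the 3 club cell markers measured on version 2 A all had the opposite sign there. None of the 6 heart muscle or 2 squamous epithelium markers did. The part of these markers in the member values was not tested.

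The 24 h differences depended on which PBS group they were set against. With the PBS 72 h samples in that place, 0 of 12 members were called for ragweed at 24 h, where 0.321% of all probe sets were called in either direction. The median was -0.03 and 5 of 12 were positive. H2-DMb1 went from 1.24 to -0.01, H2-Aa (92866_at) from 0.46 to 0.11 and H2-Ab1 from 0.28 to -0.37. Ciita went from 0.38 to -0.25 and Cd74 from 0.26 to 0.03. H2-Oa kept its size, from 0.53 to at least 0.64, as did the H2-Aa probe set 169296_at, from 0.65 to 0.61. The H2-Aa probe set 167072_r_at grew from 0.42 to 1.86 ± 0.53 and did not pass (limma adjusted p = 0.243).

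The 72 h differences of the chain genes on the A arrays, Cd74 and the H2-DM genes were larger with the other reference, while H2-Oa went from at least 0.71 to 0.60 and 167072_r_at from 1.57 to 0.13. Against the PBS samples of 24 h, 5 of 12 members were called higher, where 0.622% of all probe sets were. These were H2-DMb1 (1.70 ± 0.17, adjusted p = 0.00273), 98034_at (at least 1.45 ± 0.20, adjusted p = 0.0171), H2-Ab1 (1.31 ± 0.16, adjusted p = 0.00783), H2-Aa (1.08 ± 0.09, adjusted p = 0.00154) and H2-DMa (0.69 ± 0.12, adjusted p = 0.0483). H2-Eb1 followed with 1.24 ± 0.24 (adjusted p = 0.0654) and Cd74 with 0.50 ± 0.10 (adjusted p = 0.0754). This comparison joins the treatment and the time, since its groups differ in both.

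**Figure D2:**
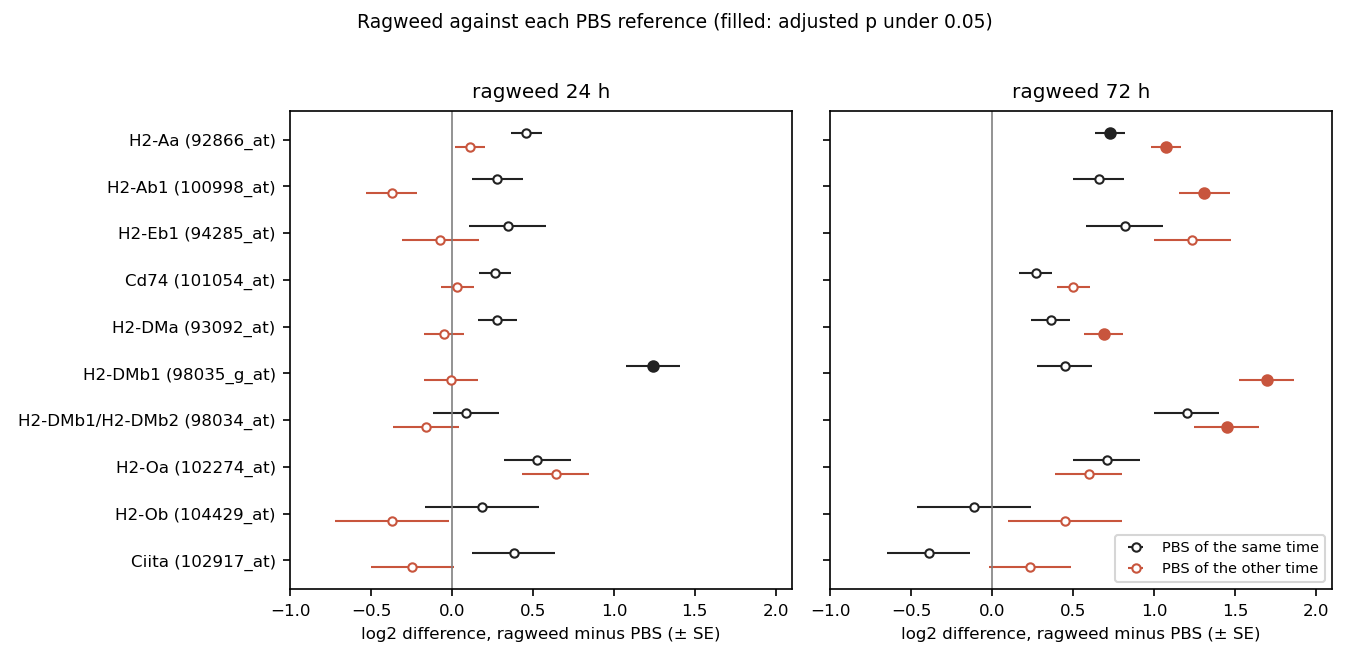
Log2 difference (± SE) of 10 member probe sets for ragweed at 24 h (left) and 72 h (right), against PBS of the same time (black) and PBS of the other time (red); filled points have an adjusted p under 0.05, and a value is a lower bound where both PBS samples lie under the floor and both ragweed samples above it. At 24 h most red points sit near 0, with H2-DMb1 at -0.01 in place of 1.24; at 72 h the first 7 probe sets are above 0 with either reference.

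Between the ragweed groups, H2-Aa and 98034_at were higher at 72 h than at 24 h. The difference uses no PBS group as reference, while the PBS samples share in the normalization, the floor and the SE. H2-Aa rose by 0.62 ± 0.09 from 24 h to 72 h (adjusted p = 0.0498) and 98034_at by 1.36 ± 0.20 (adjusted p = 0.0480). These were 2 of 12 members, where 0.305% of all probe sets were called. H2-Ab1 stood at 1.03 ± 0.16 (adjusted p = 0.050002), just past the threshold, H2-Eb1 at 0.89 ± 0.24 (adjusted p = 0.234), H2-DMb1 at 0.45 ± 0.17 (adjusted p = 0.378) and Ciita at -0.15 ± 0.26 (adjusted p = 0.882). Leaving out any of the 8 samples left 0 members called in this comparison.

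Version 2 of the A array carried the same samples except ragweed at 24 h, and so gave a second hybridisation of the 72 h comparison. H2-DMb1 rose there by 1.12 ± 0.16, or 2.17-fold (adjusted p = 0.0260). Its values were 1549 and 2022 in PBS and 4139 and 3576 in ragweed. H2-Eb1 rose by 0.66 ± 0.12 (adjusted p = 0.0454), from 5362 and 5377 to 9104 and 7957. These were 2 of 11 members, where 1.59% of 8044 probe sets were called higher. H2-Aa was at 0.59 ± 0.13 (adjusted p = 0.0830), from 11761 and 10705 to 18315 and 15662, and H2-DMa at 0.59 ± 0.13 (adjusted p = 0.0841). H2-Ab1 was at 0.52 ± 0.17 (adjusted p = 0.177), Cd74 at 0.54 ± 0.19 (adjusted p = 0.211) and 98034_at at 1.04 ± 0.28 (adjusted p = 0.129). The calls thus fell on different genes in the 2 versions, while these 7 probe sets had positive differences on both. With p-values pooled over version 2 A and first-version B and C, no member was called, and H2-DMb1 had an adjusted p of 0.0722.

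The chains of H2-DO, H2-Oa and H2-Ob, did not keep their direction between versions. H2-Oa was at -0.62 ± 0.30 on version 2 A (adjusted p = 0.331), with 473 and 532 in PBS and 447 and 72 in ragweed, against at least 0.71 on the first version. H2-Ob was at 0.35 ± 0.27, against -0.11 on the first version. Ciita was at -0.04 ± 0.37 and kept its sign. A probe set of H2-DMa found on version 2 alone, 162346_f_at, was lower in ragweed, with 549 and 589 in PBS and 351 and 144 in ragweed (-0.98 ± 0.29, adjusted p = 0.160). It ran opposite to 93092_at of the same gene. Both ragweed samples lay above both PBS samples for 7 of 11 members on version 2 A, where 22.5% of all probe sets did. The median of the 11 was 0.54 and that of all probe sets -0.01.

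**Figure D3:**
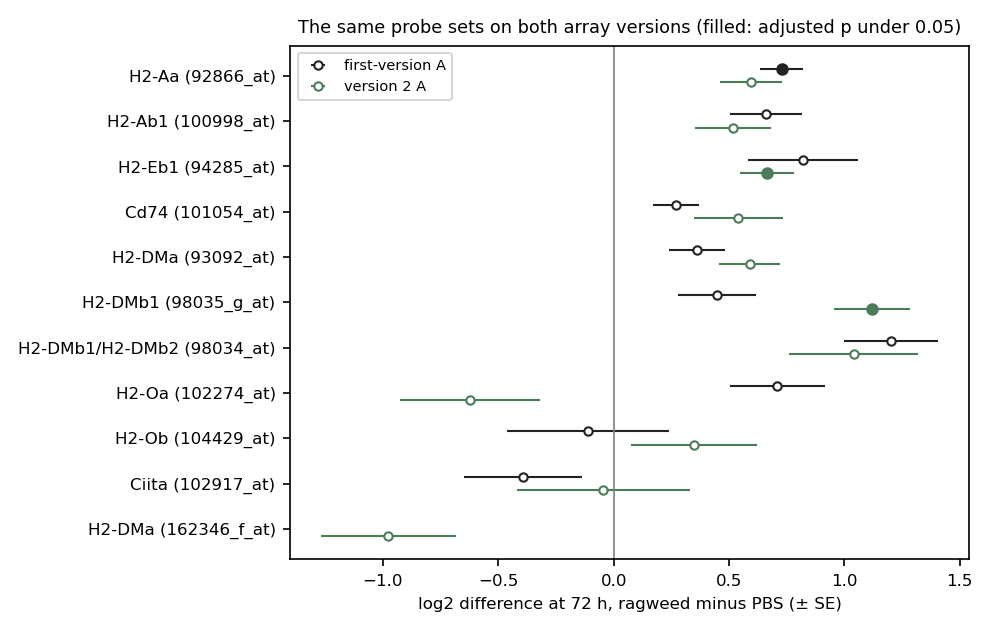
Log2 difference at 72 h, ragweed minus PBS (± SE), of member probe sets on the first-version A arrays (black) and on version 2 A (green); filled points have an adjusted p under 0.05, the first-version H2-Oa value is a lower bound, and 162346_f_at is on version 2 alone. The first 7 probe sets are above 0 on both versions, and H2-Oa is at 0.71 on the first version and -0.62 on version 2.

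Among genes that act with class II, the cathepsins Ctss, Ctsb and Ctsz rose. Of 19 genes of invariant chain processing and class II turnover 14 were tested; 2 rose at 24 h and 3 at 72 h, and none fell. Of 12875 genes tested, 0.326% were called higher at 24 h and 0.0388% lower; at 72 h 0.373% were called higher and 0.272% lower. The list medians were 0.18 at 24 h and 0.32 at 72 h.

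Ctss, cathepsin S, the protease that makes the last cuts in the invariant chain, had the most marked change. It read 5247 and 4939 with PBS against 9608 and 9706 with ragweed in the 24 h samples, and 6466 and 5821 against 13846 and 15034 in the 72 h samples. It rose by 0.92 ± 0.09 at 24 h (adjusted p = 0.00596) and by 1.23 ± 0.09 at 72 h (adjusted p = 0.00140). The 72 h call held when any sample was left out, and the 24 h call was lost without PBS 24 h 1b or either ragweed 24 h sample, with adjusted p up to 0.0755.

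Ctsb, cathepsin B, rose by 0.68 ± 0.09 at 24 h (adjusted p = 0.0306), from 5595 and 6108 to 8968 and 9835. At 72 h it rose by 0.88 ± 0.09 (adjusted p = 0.00606), from 5421 and 5323 to 10113 and 9663. Ctsz, cathepsin Z, rose by 1.02 ± 0.14 at 72 h (adjusted p = 0.0233), from 1244 and 1517 to 2926 and 2641. These cathepsins are lysosomal proteases of many cell types, macrophages among them. The Ctsb call at 24 h and the Ctsz call were lost when any sample was left out, and the Ctsb call at 72 h when either sample of either 72 h group was, with adjusted p up to 0.158, 0.184 and 0.0902.

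The genes of this list that came next did not pass. Lgmn, an asparagine endopeptidase, stood at 1.06 ± 0.22 at 72 h (adjusted p = 0.120) and Ifi30, the lysosomal thiol reductase, at 0.72 ± 0.15 (adjusted p = 0.116). Both passed on version 2 A, at 0.92 (adjusted p = 0.0356) and 0.75 (adjusted p = 0.0475). Cd83, a surface protein of mature dendritic cells, stood at -0.53 ± 0.36 (adjusted p = 0.713), with 0.41 on version 2 A, and Marchf8, a ubiquitin ligase, at 0.47 ± 0.36 (adjusted p = 0.741).

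Of the transactivation list, 16 of 19 genes were tested and none was called at either time, with medians of 0.13 at 24 h and 0.10 at 72 h. Its members include the RFX and NF-Y factors of the X and Y boxes and the interferon gamma receptor chain genes. The widest differences at 72 h were those of Spi1 (0.92 ± 0.33, adjusted p = 0.405), Jak2 (0.64 ± 0.27, adjusted p = 0.506), Rfxap (-0.49 ± 0.47, adjusted p = 0.797) and Ifngr2 (0.43 ± 0.23, adjusted p = 0.612). On version 2 A, which held 12 of the tested genes, none was called and 4 had the opposite sign, with Spi1 at 0.19 and Jak2 at -0.19. Ifng, the cytokine that induces Ciita in many cells, had no tested probe set.

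Of the interferon gamma target list, 14 of 18 genes were tested and none was called at either time, with medians of 0.26 at 24 h and 0.37 at 72 h. The peptide transporter genes Tap2 and Tap1 stood at 0.70 ± 0.36 (adjusted p = 0.608) and 0.69 ± 0.18 (adjusted p = 0.216) at 72 h, the GTPase gene Ifi47 at 0.62 ± 0.31 (adjusted p = 0.601) and the immunoproteasome gene Psmb9 at 0.58 ± 0.27 (adjusted p = 0.566). On version 2 A none of the 14 was called and 3 had the opposite sign, with Ifi47 at -0.22, Tap1 at 0.16, Tap2 at 0.38 and Psmb9 at 0.29.

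Of 3 class II genes outside the 9, 2 were tested. H2-Ea, the alpha chain that pairs with H2-Eb1 and is silent in some mouse strains, read 2194 and 2026 with PBS against 2576 and 3148 with ragweed in the 24 h samples, and 4266 and 4352 against 6819 and 6195 in the 72 h samples. It shared with H2-Ab1 the low 24 h groups and the high ragweed 72 h group. Its differences were 0.43 ± 0.12 at 24 h (adjusted p = 0.316) and 0.59 ± 0.12 at 72 h (adjusted p = 0.115), and it was higher in PBS at 72 h than in PBS at 24 h by 1.03 ± 0.12 (adjusted p = 0.0160). H2-DMb2 (101868_i_at) stood at -0.48 ± 0.40 and -0.57 ± 0.40. On version 2 A its 72 h difference was 0.81, in the other direction.

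**Figure D4:**
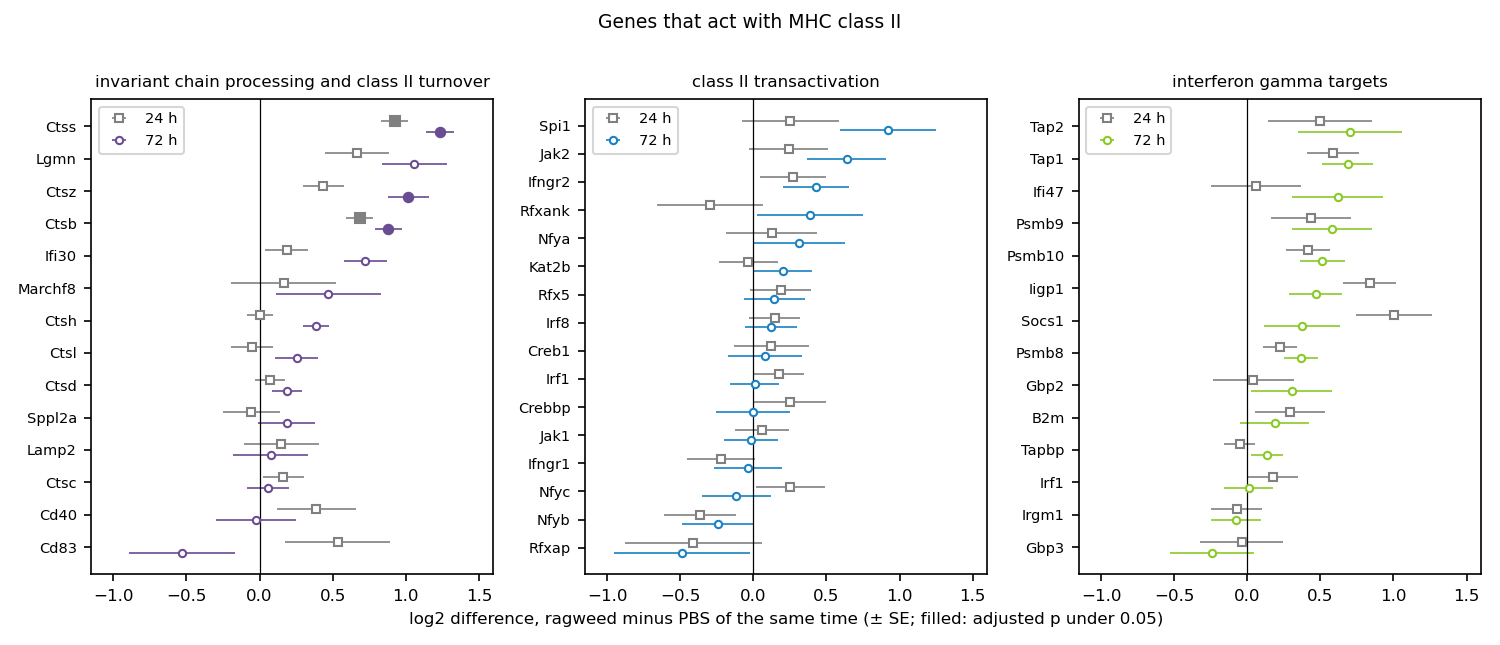
Log2 difference, ragweed minus PBS of the same time (± SE), of the tested genes of 3 lists at 24 h (squares) and 72 h (circles), ordered by the 72 h value; filled points have an adjusted p under 0.05. The filled points are Ctss and Ctsb at both times and Ctsz at 72 h, all in the left panel.

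Markers of cells that carry class II were summed per sample, since in whole lung fewer cells of a type and less RNA per cell cannot be told apart. The 9 tested B cell markers summed to 6321 and 5105 with PBS against 6660 and 5971 with ragweed in the 24 h samples, and to 7640 and 6847 against 8891 and 8267 in the 72 h samples, an order of groups like that of H2-Ab1. The markers did not run alike: Cd79a read 2340 and 2203 with PBS against 1534 and 1554 with ragweed at 72 h (-0.56, adjusted p = 0.368), and Pax5 and Cr2 were at -0.34 and -0.18. On version 2 A, Cd79a was at 0.53 and Pax5 at 0.39, and 4 of the 8 B cell markers measured there had the opposite sign. Of the 9, Cd22 alone was called higher at 72 h (1.38 ± 0.20, adjusted p = 0.0289), with 0.37 on version 2 A (adjusted p = 0.427), and none was called at 24 h. The 9 macrophage and monocyte markers summed to between 48641 and 58138 in PBS and between 80099 and 98859 in ragweed. Chil3 was called at both times and Mpeg1 at 72 h (0.075 on version 2 A, adjusted p = 0.860), and Chil3 with 43673 to 52066 in ragweed turned the order of that sum. Without it the markers summed to between 45931 and 56755 in PBS and between 36426 and 47913 in ragweed. Most of what was left was Lyz2, which read 37862 to 49622 in PBS and 26784 to 35948 in ragweed. Lyz2 was at -0.73 at 24 h (adjusted p = 0.172) and -0.36 at 72 h (adjusted p = 0.517), and at 0.59 on version 2 A (adjusted p = 0.147). Of the 9 markers 7 were positive at 72 h, and the list medians were 0.51 at 24 h and 0.49 at 72 h. Mrc1 passed at 72 h on version 2 A (1.28, adjusted p = 0.0488). The 8 dendritic cell markers summed to between 10553 and 12028 in 7 samples and 8745 in ragweed 72 h 1a, with none called. Their list medians were 0.11 at 24 h and -0.44 at 72 h, where 3 of the 8 were positive. Itgax was at 0.51 at 72 h (limma adjusted p = 0.535) and passed on version 2 A (1.25, adjusted p = 0.0175). Of the 7 markers measured on version 2 A, 2 had the opposite sign there. Ccr7, Zbtb46, Itgae and Ccl17 had no tested probe set. The 6 alveolar type II markers summed to between 132284 and 170094, with none called. Of these, Sftpc was at 0.062 at 72 h and at 3.74 on version 2 A (adjusted p = 0.0215). Of the tested markers of T cells, endothelium and lymph node stroma none was called at either time, while the lymph node stroma marker Clu was lower on version 2 A (-0.65, adjusted p = 0.0302). The part of these cell types in the member values was not tested.

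The member probe sets varied together to different degrees. Across the 8 samples, the correlation of a probe set with the mean of the member probe sets under other symbols was 0.96 for Cd74, 0.94 for H2-Aa (92866_at), 0.93 for H2-DMa, 0.86 for H2-DMb1 and for H2-Eb1, and 0.80 for H2-Ab1. It was 0.66 for H2-Oa, 0.34 for H2-Ob, 0.15 for Ciita and at most 0.08 for the H2-Aa probe sets on the C arrays. For H2-DMb1 that mean still held 98034_at, which matched H2-DMb1 and H2-DMb2. The samples share arrays and normalization, so these values are descriptions with no test.

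The genes outside the 9 whose profile was most like the members' mean were ranked. Among 12866 candidates over 8 samples, the 8 closest by Pearson correlation were Igkv4-68 (0.99), Ighm (0.98), Cd37 (0.98), Jchain (0.98), Igkv6-14 (0.98), Tap1 (0.98), Acp5 (0.97) and Igkv6-23 (0.97). Igkv4-68, Igkv6-14 and Igkv6-23 are kappa light chain variable segments, whose probe sets can bind transcripts of several family members, Ighm is the mu heavy chain, and Jchain joins IgM and IgA multimers. Ighm read 4240 and 4245 with PBS against 14150 and 13020 with ragweed in the 24 h samples, and 9835 and 10113 against 37862 and 29833 in the 72 h samples. Its PBS samples of 72 h also lay above those of 24 h. All 8 genes were read on the first-version A arrays. At 72 h Cd37 was at 1.14 there and at -0.0085 on version 2 A (adjusted p = 0.988). Both PBS 24 h samples of Jchain and Igkv6-14 lay under the floor and were set to it. The same holds for PBS 24 h sample 1b of Igkv4-68, Cd37 and Acp5. H2-Ea had a correlation of 0.86 and ranked 107 among the candidates, and H2-DMb2 (101868_i_at) one of 0.07 and ranked 5396.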

How the data were processed

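Values were deposited as linear intensity, 1 per probe set and array; the software behind them was not given in the sources used here. Version 2 and first-version ragweed arrays had been scaled to a trimmed mean of about 800. First-version PBS arrays had not, with trimmed means from 80.6 to 376.5. Deposited scaling thus followed treatment on the first-version arrays that carried a code. Any processing that went with it cannot be told apart from treatment on that version. An uncoded first-version A array equalled ragweed 24 h 1a divided by 2.63 and was left out, leaving 46 distinct arrays. First-version A (9977 probe sets shared with version 2 A) was scaled to 800 and quantile normalized; no further scaling was applied to version 2 B and C. Values under the 40th percentile of a table (292, 356 and 245) were raised to it. Probe sets above it on at least 2 arrays, 6896, 9190 and 9164, were fitted with limma 3.58.1 in R 4.3.3: 4 group means, 4 residual degrees of freedom, eBayes with trend, Benjamini-Hochberg over the 3 tables, calls at 0.05. The code was tested on simulated data. The median SE of a log2 difference was 0.23, 0.32 and 0.45 on the A, B and C tables, and precision is limited by the number of arrays. Replicate arrays correlated at 0.78 to 0.96. For genes, 1 probe set with 1 symbol was used, A before B before C, then the brightest. All member probe sets are named; of each list, called genes and up to 4 more with the widest 72 h difference are. Members and lists were chosen with earlier results of these data known. Alternatives covered normalization, floor, filter, array version, adjustment, trend, replicate block, PBS reference and each sample left out. Samples with the same code did not deviate together (correlations from -0.08 to 0.04).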

Additional observations from a re-analysis of the deposited data

Results flagged for a closer look

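Ciita (102917_at) had opposite signs at the 2 times: both ragweed samples lay above both PBS samples at 24 h and below both at 72 h. The difference between the times was -0.77 ± 0.36 on the log2 scale and did not pass when tested in the same fit (limma adjusted p = 0.708). On version 2 A, where ragweed at 24 h was not measured, the 72 h groups overlapped (-0.04 ± 0.37). Against the PBS samples of the other time, the signs turned to -0.25 at 24 h and 0.23 at 72 h.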

How the results depend on the processing

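The counts of called members were small and moved easily. At 24 h the count of 1 went to 0 with no filter on dim probe sets, with no mean-variance trend and with the PBS samples of the other time or of both times as reference; it ran from 0 to 1 over the samples left out. At 72 h the count of 1 went to 0 with no filter, with no trend and on the other array version; it was 2 with a floor at the 50th percentile and with p-values adjusted within each table, 5 with the PBS samples of the other time, 4 with those of both times, and 0 to 1 over the samples left out. The difference between times had 0 called under every alternative run, and 0 with each sample left out. For PBS 72 h against PBS 24 h, 1 became 0 with no filter, with no trend and on the other version, and 0 to 1 over the samples left out. For ragweed 72 h against 24 h, 2 became 0 with a floor at the 20th percentile, no filter, no trend or the replicate block, 0 over each sample left out, and 3 with version 2 B and C quantile normalized and with p-values adjusted within each table. The cause of these changes was not tested. The other array version has no ragweed 24 h sample on A, so it was not run for the 24 h comparison or the difference between times.

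Signs turned for several members that were not called, and for H2-DMb1 at 24 h. With the PBS samples of the other time, the 24 h values were -0.25 for Ciita, -0.37 for H2-Ab1, -0.049 for H2-DMa, -0.0073 for H2-DMb1, -0.16 for 98034_at, -0.074 for H2-Eb1 and -0.37 for H2-Ob, and the 72 h values 0.23 for Ciita and 0.45 for H2-Ob. With PBS of both times, H2-Ab1 was at -0.047, 98034_at at -0.036 and H2-Ob at -0.094 at 24 h, and H2-Ob at 0.17 at 72 h. The probe set 98034_at was at -0.24 with a floor at the 20th percentile and at -0.17 with no floor and a pseudocount of 50. H2-Aa 169296_at was at -0.057 at 72 h with version 2 B and C quantile normalized, and from -0.050 to 0.24 over the samples left out. On the other array version H2-Oa was at -0.62 and H2-Ob at 0.35. Over the samples left out, H2-Ob ran from -0.093 to 0.47 at 24 h and from -0.53 to 0.30 at 72 h. Over all probe sets, counts of calls ran from 22 to 121 at 24 h (58 as reported), from 25 to 238 at 72 h (133), from 0 to 123 for the difference between times (9), from 2 to 118 for PBS (71) and from 2 to 152 for ragweed (77).

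Whether the codes 1a and 1b pair the samples was not given, and samples with the same code did not deviate together. With the replicate block, 1 member was called at 24 h, 1 at 72 h, 0 for the difference, 1 for PBS and 0 for ragweed 72 h against 24 h; over all probe sets 58, 90, 8, 59 and 47 were called. Limits: 2 samples a group, low signal for H2-Oa, H2-Ob, Ciita and 98034_at, and values near the top of the array for Cd74.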
